A study of Mus musculus with 22 samples.

Results

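The microglia genes of this report are Cx3cr1, P2ry12, Tmem119, Csf1r, Aif1, C1qa, C1qb, C1qc, Trem2 and Itgam. These 10 genes were taken by name from the 39179 genes of the count tables, and each matched a single gene identifier. RNA-seq had been done on 22 samples with wild type (WT) or Phf8 KO genotype, all labelled with the strain background B6x129SvJ, where the methods name the 129 substrain as 129SvJae. The brain samples were prefrontal cortex (PFC, 3 WT and 3 KO) and ventral striatum (STR, 3 WT and 3 KO) of mice aged 2 months. The cultures were embryonic stem cells (ESCs, 2 WT and 2 KO), which came from blastocysts and were kept on gelatin or feeder cells, and neural progenitor cells (NPCs, 3 WT and 3 KO), grown as a monolayer from E16.5 embryos. Phf8, an X-linked gene for a histone demethylase, lost exons 7 and 8 in the KO. A CMV-driven Cre removed them in targeted V6.5 ESC clones that were then injected into blastocysts, so the allele is missing these exons in every cell type and not in microglia alone. The sources used here do not say whether the samples of a group came from separate mice or cultures, so the p-values measure only the spread between these samples.

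Microglia are the resident macrophages of the brain. They enter it from the embryonic yolk sac, live on signals through CSF1R, whose ligands CSF1 and IL34 are made largely by other cells, and carry a set of surface receptors that is lost when the cells leave the brain. Through CX3CR1 and P2RY12 they respond to neurons and to released nucleotides, and in the healthy brain they are a main source of C1q, the starting molecule of the classical complement pathway. All brain values are from whole tissue, where fewer microglia and less RNA per microglial cell cannot be told apart.

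Before the comparisons, the targeted gene was checked. Normalised Phf8 counts were 42.9 to 56.4 CPM (counts scaled to library size) in the 6 WT brain samples and 15.0 to 23.2 in the 6 KO brain samples, with no overlap, and the cultures did not overlap by genotype either. Total counts on genes were 5898286 to 10148073 in the brain libraries and 11455757 to 15539811 in the cultures. Some libraries stood apart. In STR KO replicate 1 the summed level of 8 hypothalamus genes was 235 CPM, against a highest value of 20.8 CPM in STR WT. STR KO replicates 2 and 3 were also above STR WT, at 41.4 and 28.1 CPM. Both ESC libraries of replicate 2 held 3134 and 3897 CPM of 8 fibroblast genes (WT first), against 140 and 130 CPM in replicate 1.

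All 10 genes were well measured in the brain. Over the 12 brain libraries the counts ran from 68 for the lowest library of Aif1 to 1238 for the highest library of Csf1r. On a scale divided by length (RPKM, from CPM and the union of annotated exons), the order in WT STR was C1qb at 58.8 ± 3.42 RPKM (SD, n = 3), C1qa at 54.8 ± 3.30, C1qc at 29.6 ± 2.24, P2ry12 at 22.9 ± 1.96, Csf1r at 20.5 ± 0.823, Cx3cr1 at 18.5 ± 0.280, Tmem119 at 18.5 ± 0.664, Aif1 at 8.11 ± 0.756, Itgam at 7.31 ± 1.19 and Trem2 at 6.38 ± 0.261. The ranges of the samples overlapped between C1qb and C1qa, between Cx3cr1 and Tmem119, between Aif1 and Itgam and between Itgam and Trem2, so those neighbours were not ordered. In WT PFC the order of the means was the same, from C1qb at 51.0 to 56.5 RPKM to Trem2 at 5.19 to 5.47 RPKM. There P2ry12, Csf1r, Cx3cr1 and Tmem119 overlapped from each to the next. The 3 C1q chains join into 1 complex. Per length, C1qc was lower than C1qa and C1qb in both regions, with no overlap of the samples. That gap came from the length divisor, at 1931 bases for C1qc, 1040 for C1qa and 1088 for C1qb. In CPM, the samples of C1qc overlapped those of C1qa and of C1qb in WT STR and WT PFC. Trem2, last per length with 4946 bases, had a mean of 31.6 CPM in WT STR, above Aif1 at 12.4 CPM. Whether these lengths match the transcripts expressed was not tested, so the order depends on them.

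**Figure D1:**
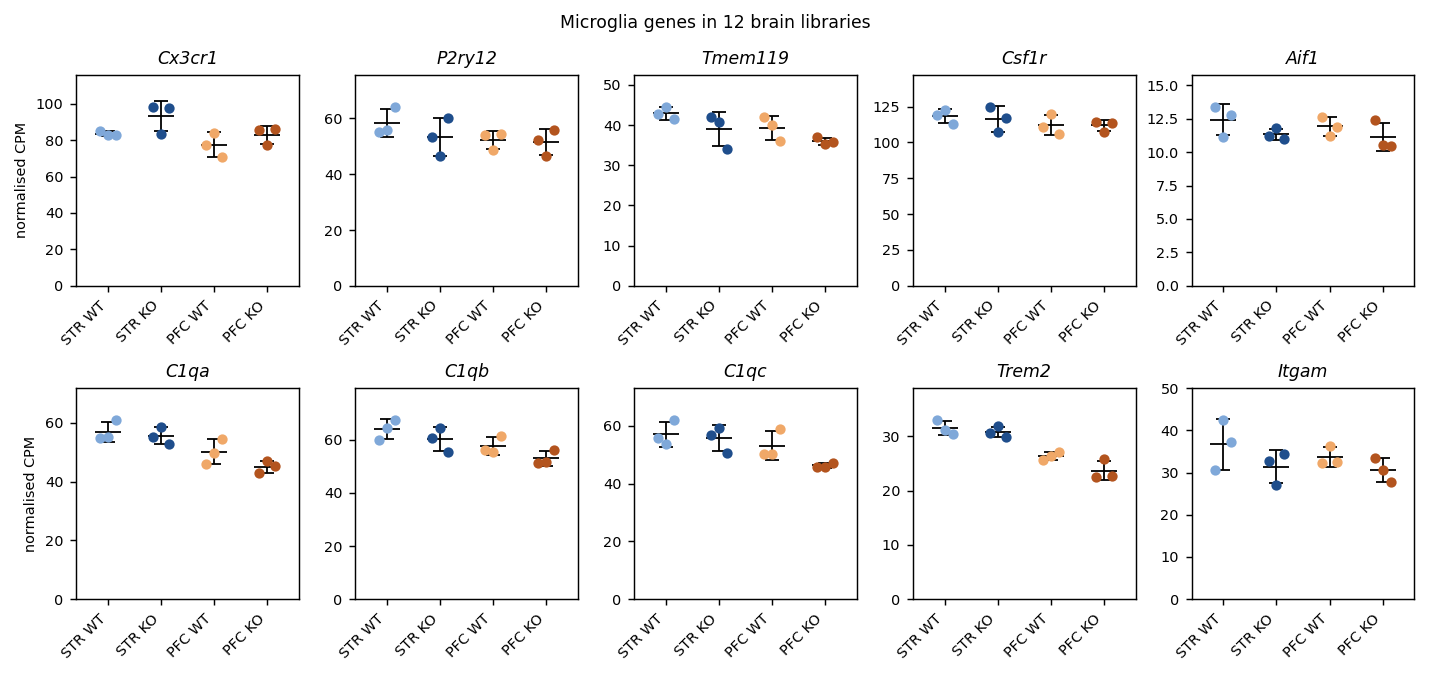
Normalised CPM of each microglia gene in the 12 brain libraries (points), by region and genotype, with the mean and SD of each group of 3 (bars). Trem2 sat at 22.6 to 27.0 CPM in PFC and at 29.9 to 33.0 CPM in STR, while Csf1r was at 106 to 125 CPM in all 4 groups.

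Positions are given on GRCm38 (GENCODE release M21) for the genes other than Csf1r. C1qa (chr4:136895917-136898803), C1qc (chr4:136889804-136893065) and C1qb (chr4:136880129-136886187) lie next to each other on the minus strand. Trem2 (chr17:48346401-48354147) and Aif1 (chr17:35170991-35176068) share a chromosome at a distance. Itgam is at chr7:128062640-128118491 and Tmem119 at chr5:113793729-113800516. P2ry12 (chr3:59216272-59262871, minus strand) lies within Med12l, a subunit gene of the Mediator complex on the other strand, and the annotated Cx3cr1 gene (chr9:119901616-120069879) spans several further genes. The strand setting of the counting is not given for the brain libraries, so reads shared with an overlapping gene cannot be told apart.

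Upstream sequence was at hand for 7 of the 10 genes (RefSeq, GRCm38.p6). In the 250 bases before the start, the letters GAGGAAG, the core recognised by PU.1 (the lineage factor of macrophages and microglia), were found on either strand in 3 of the 7, C1qc, Trem2 and Itgam, and in 10.6% of all 32851 promoters of that length. The letters TGTGGTT, a core of RUNX factors, were found in 0 of the 7 and in 4.4% of all. The starts are those of RefSeq, which can differ from the GENCODE positions above. The 250 bases of Cx3cr1 lay within its GENCODE gene, and so did part of those of C1qc and Aif1. The promoters of C1qc and Trem2 are shown because these genes passed the test between regions described further on, and that of Itgam as the third with the PU.1 core. Capitals mark GAGGAAG or its reverse complement CTTCCTC, which do not overlap another searched motif, and a match is a description of letters and not of binding.
C1qc promoter, chr4:136892915-136893164, minus strand: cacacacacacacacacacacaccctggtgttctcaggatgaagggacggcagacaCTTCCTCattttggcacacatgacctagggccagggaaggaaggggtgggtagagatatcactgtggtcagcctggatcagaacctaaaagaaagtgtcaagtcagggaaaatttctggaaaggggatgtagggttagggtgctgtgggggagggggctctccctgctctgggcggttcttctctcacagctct
Trem2 promoter, chr17:48346151-48346400, plus strand: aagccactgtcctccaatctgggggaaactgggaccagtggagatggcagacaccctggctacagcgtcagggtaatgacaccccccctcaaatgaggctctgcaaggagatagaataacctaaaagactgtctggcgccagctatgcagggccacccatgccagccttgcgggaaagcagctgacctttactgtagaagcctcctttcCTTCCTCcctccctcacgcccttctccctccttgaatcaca
Itgam promoter, chr7:128062390-128062639, plus strand: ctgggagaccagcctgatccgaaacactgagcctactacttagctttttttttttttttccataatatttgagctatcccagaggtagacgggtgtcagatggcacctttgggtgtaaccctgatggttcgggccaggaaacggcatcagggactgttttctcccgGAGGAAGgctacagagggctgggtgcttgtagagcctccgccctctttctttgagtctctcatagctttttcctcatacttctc

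Loss of Phf8 in the PFC was compared first. None of the 10 genes passed a false discovery rate (FDR) of 0.05 in edgeR's quasi-likelihood test, where 98 of 15364 genes did, or 0.638%. Of the 10, 1 gene had an unadjusted p under 0.05, against 11.2% of all genes. DESeq2 called 0 of the 10 and 1.28% of all genes, and edgeR's exact test 0 of the 10 and 2.45% of all genes. The fitted log2 fold changes of KO against WT ran from -0.22 to 0.07 with a median of -0.15, where the median of all genes was -0.02. The sign was negative for 9 of the 10 and for 55.9% of all genes tested. Over the 10 genes the 95% confidence intervals reached from 25.9% lower, for Aif1, to 19.1% higher, for Cx3cr1.

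Of the 10 genes, C1qc, the gene of the C chain of C1q, had the most negative fold change in KO PFC. It had 50.4, 50.3 and 59.0 CPM in the 3 WT samples and 45.9, 45.9 and 47.1 CPM in the 3 KO samples. The groups did not overlap, which held for 7.39% of all genes in that direction. Its log2 fold change was -0.22 (SE 0.09, edgeR quasi-likelihood FDR = 0.386). C1qa had 46.1, 49.7 and 54.6 CPM in WT and 43.0, 46.8 and 45.2 CPM in KO, and C1qb 56.1, 55.5 and 61.4 CPM in WT and 51.3, 51.6 and 56.1 CPM in KO. In C1qa and C1qb the groups overlapped. Their log2 fold changes were -0.18 and -0.14, with FDR of 0.545 and 0.604 in edgeR.

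The receptors gave no call either. Trem2, a lipid-sensing receptor that signals through the adaptor Tyrobp, had 25.7, 26.4 and 27.0 CPM in WT PFC and 22.6, 25.7 and 22.7 CPM in KO PFC, and the KO value of 25.7 CPM reached into the WT range. Cx3cr1, the receptor of fractalkine, was the exception in sign, with 77.5, 84.1 and 70.7 CPM in WT and 85.4, 77.2 and 86.0 CPM in KO. Csf1r was at 106 to 120 CPM in WT and 108 to 114 CPM in KO, and P2ry12, a receptor for ADP, at 48.7 to 54.3 and 46.6 to 55.8 CPM. Tmem119, a surface protein found in microglia and little in other macrophages of the brain, was at 36.1 to 42.0 CPM in WT and 35.2 to 37.0 CPM in KO. Itgam, the alpha chain of complement receptor 3, was at 32.2 to 36.4 and 27.8 to 33.5 CPM, and Aif1, the actin-binding protein IBA1, at 11.2 to 12.6 and 10.5 to 12.4 CPM. All these groups overlapped, and the FDR of all 10 genes lay between 0.386 and 0.926 in edgeR.

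Genes of some other cell types were lower in the same comparison. Of 8 oligodendrocyte genes, 5 were lower in KO PFC and 0 higher, among them Mog, a myelin surface protein, at a log2 fold change of -0.95 (SE 0.10, edgeR FDR = 0.00369), and Opalin at -0.98 (SE 0.11, FDR = 0.00472). The summed level of the 8 genes was 1989 to 2579 CPM in WT PFC and 1600 to 1695 CPM in KO PFC. The summed level of the 10 microglia genes was 499 to 531 CPM in WT PFC and 469 to 482 CPM in KO PFC. In both of these sums the genotypes did not overlap, and the sums were not tested. Without PFC KO replicate 2 or without PFC KO replicate 3, 2 genes in all passed the threshold in PFC, so that at most 2 of the oligodendrocyte genes were then called. Of the genes tested from other lists, 1 of 8 astrocyte genes and 1 of 6 oligodendrocyte precursor genes were called, both lower in KO. None of 8 endothelial, 7 border macrophage or 14 microglial activation genes was called in edgeR, and all of them had negative log2 fold changes, with medians of -0.29, -0.43 and -0.24. The summed level of the 8 border macrophage genes was 37.1 to 48.4 CPM in WT PFC and 29.9 to 32.3 CPM in KO PFC, with no overlap, and that of the 8 endothelial genes was 337 to 452 CPM and 290 to 374 CPM. Of 8 genes of neurons, 4 had negative values, with a median of -0.0029. The part of these other cells in the microglia values was not tested.

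In the STR, KO against WT gave 0 of 10 microglia genes and 0 of 15476 genes in all past FDR 0.05 in edgeR, or 0%. No microglia gene had an unadjusted p under 0.05, where 8.7% of all genes did, and 0 of the 10 were called by DESeq2 (0.343% of all genes) or by edgeR's exact test (0.672%). The log2 fold changes ran from -0.22 for Itgam to 0.16 for Cx3cr1, with a median of -0.06, where the median of all genes was 0.002. As in PFC, the sign was negative for 9 of the 10, here beside 49.4% of all genes tested. Cx3cr1 had 85.0, 82.8 and 82.8 CPM in the 3 WT samples and 98.3, 83.6 and 97.8 CPM in the 3 KO samples. In KO, 2 of the 3 values were the highest of the 12 brain libraries, and the third lay within the WT range (log2 fold change 0.16, SE 0.08, edgeR FDR = 0.634). The means of C1qa and C1qc differed between genotypes by less than the spread of the samples, with C1qa at 54.7 to 60.9 CPM in WT and 52.8 to 58.6 CPM in KO and C1qc at 57.1 ± 4.32 and 55.7 ± 4.48 CPM (SD, n = 3). The confidence intervals of the 10 genes reached from 31.3% lower, for Itgam, to 27.0% higher, for Cx3cr1. Without STR KO replicate 1, the library with the highest level of hypothalamus genes, 0 of the 10 were called. Replicates 2 and 3 of STR KO, also above STR WT in those genes, stayed in that fit.

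The effect of the KO was not shown to differ between the regions. In a single model over the 12 brain samples, the interaction of genotype and region passed FDR 0.05 for 0 of the 10 genes and for 1 of 16028 genes (0.00624%), and the unadjusted p was under 0.05 for 0 of the 10 and for 6.41% of all genes. DESeq2, with 0.119% of all genes called, and edgeR's likelihood ratio test, with 0.162%, also called 0 of the 10. The interaction was -0.16 on the log2 scale for C1qc (95% interval -0.43 to 0.11), -0.12 for C1qa (-0.37 to 0.14) and -0.12 for Trem2 (-0.39 to 0.15).

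**Figure D2:**
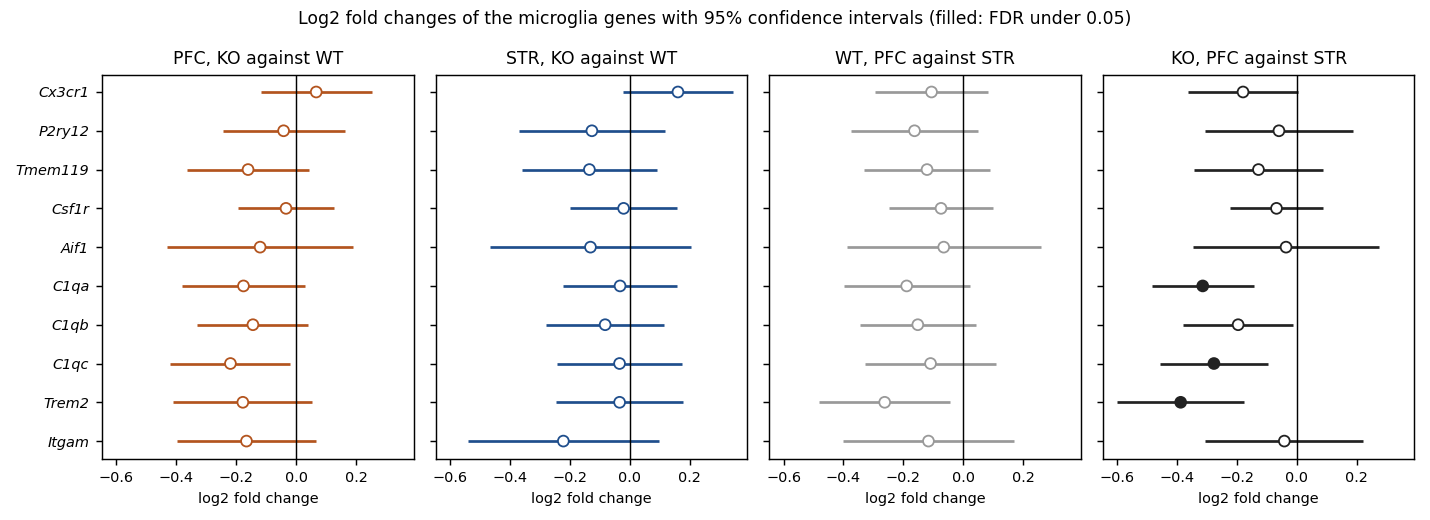
Log2 fold changes of the 10 microglia genes (points) with 95% confidence intervals (lines) in 4 comparisons, filled where the FDR was under 0.05. Only C1qa, C1qc and Trem2 are filled, in the comparison of KO PFC with KO STR, and all 10 points lie left of 0 in both comparisons between regions.

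PFC and STR were then compared within each genotype. In WT mice all 10 genes had a lower mean in PFC than in STR, with log2 fold changes from -0.26 to -0.07 and a median of -0.12, where 51.2% of all genes were lower and the median of all genes was -0.01. None of the 10 passed FDR 0.05, while 24.4% of 15555 genes did, and 1 of the 10 had an unadjusted p under 0.05, against 34.9% of all genes. DESeq2 called 0 of the 10 and 22.4% of all genes, and edgeR's exact test 0 and 26.8%. Drd2, a dopamine receptor of striatal neurons, was at a log2 fold change of -6.35 in the same comparison. Trem2 had 33.0, 31.2 and 30.5 CPM in WT STR and 25.7, 26.4 and 27.0 CPM in WT PFC. The samples did not overlap, and the fitted difference was -0.26 on the log2 scale (SE 0.10, edgeR FDR = 0.0828). With same-numbered PFC and STR samples paired in the fit, the FDR of Trem2 was 0.0444, and Trem2 was then the only one of the 10 called. C1qa (54.7, 55.3 and 60.9 CPM in STR, 46.1, 49.7 and 54.6 CPM in PFC) and P2ry12 (55.1, 56.0 and 64.2 CPM in STR, 53.9, 48.7 and 54.3 CPM in PFC) did not overlap either. The lack of overlap with PFC lower held for 3 of the 10 and for 19.5% of all genes.

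In KO mice 3 of the 10 genes passed, all lower in PFC, where 13.9% of 15538 genes passed in that direction and 27.7% in either. An unadjusted p under 0.05 was reached by 4 of the 10 and by 38.8% of all genes. Trem2 had 30.6, 31.8 and 29.9 CPM in KO STR and 22.6, 25.7 and 22.7 CPM in KO PFC, a log2 fold change of -0.39 (SE 0.09, edgeR FDR = 0.0155). C1qa had 55.2, 58.6 and 52.8 CPM in STR and 43.0, 46.8 and 45.2 CPM in PFC (-0.31, SE 0.07, FDR = 0.0146). C1qc had 56.9, 59.4 and 50.7 CPM in STR and 45.9, 45.9 and 47.1 CPM in PFC (-0.28, SE 0.08, FDR = 0.0314). In each of the 3 genes every STR sample was above every PFC sample, which held for 22.5% of all genes in that direction. As percentages Trem2 was 23.6% lower (95% interval 34.1% to 11.4% lower). C1qb, the remaining chain, had a log2 fold change of -0.20 and FDR of 0.106, and the other genes lay between -0.18 and -0.04. All 3 KO STR libraries held more of the hypothalamus genes than any WT STR library, as given above. The part of this in the calls here, and in the later comparisons of KO PFC with KO STR, was not tested.

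The 3 calls depended on the test and on single libraries. The exact test of edgeR called 3 of the 10 and 30% of all genes. DESeq2 called 0 of the 10 and 23.6% of all genes, with adjusted p of 0.053 for C1qa, 0.0591 for Trem2 and 0.112 for C1qc. Without PFC KO replicate 1 edgeR called 0, without PFC KO replicate 3 it called C1qa alone, and without PFC KO replicate 2 or STR KO replicate 1 it called C1qa and Trem2. Without STR KO replicate 2 it called C1qa, Trem2 and Cx3cr1 (log2 fold change -0.25, FDR = 0.0374) but not C1qc (FDR = 0.0824). C1qc was thus called in 1 of the 6 fits with a library left out, the one without STR KO replicate 3 (FDR = 0.0113). The 2 comparisons between regions share no samples, and the test of their difference is the interaction given above.

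The partners of these genes were read against the 24.4% (WT) and 27.7% (KO) of all genes called between regions. Csf1, a ligand of CSF1R, was higher in WT PFC than in WT STR (41.2 against 29.2 CPM, edgeR log2 fold change 0.50, SE 0.11, FDR = 0.00849), and its values in KO were 35.5 and 34.4 CPM (FDR = 0.898). Il34, the other ligand, was at 78.3 and 82.7 CPM in WT (log2 fold change -0.08, not called) and higher in KO PFC than in KO STR (92.6 against 76.1 CPM, log2 fold change 0.27, SE 0.08, FDR = 0.0344). Neither ligand passed for KO against WT in PFC or STR. In the interaction, the test of whether these differences between regions depended on genotype, neither passed. Of the 8 genes of CSF1R ligands and signalling, 2 were higher in PFC and 0 lower in each genotype, with Pik3cd, a subunit of PI3 kinase, among them both times, a share near that of all genes. The median of the list was -0.02 in WT and 0.00 in KO.

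Among the fractalkine and purine genes, Cx3cl1, the ligand of CX3CR1, was at 446 CPM in WT PFC and 437 CPM in WT STR (FDR = 0.918). Nt5e, the ectoenzyme that makes adenosine from AMP, was lower in PFC, at log2 fold changes of -2.64 in WT and -2.57 in KO, and P2rx4, an ATP-gated channel, was higher by 0.47 and 0.41. Of the 8 genes in that list, 1 was higher and 1 lower in each genotype. In the TREM2 list 0 of 6 genes tested in WT and 0 of 7 in KO were called. Tyrobp, its adaptor, was at 18.7 CPM in WT PFC and 21.4 CPM in WT STR (log2 fold change -0.19, FDR = 0.281), and at 16.3 and 19.5 CPM in KO (-0.27, FDR = 0.083).

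For the complement genes other than C1q, the shares called are given beside those of all genes, and the difference between these shares was not tested. C1ra, a protease that binds C1q (the counts may be shared with a close copy), was at 9.18 CPM in WT PFC and 1.14 CPM in WT STR, which gave 2.99 on the log2 scale (SE 0.26, edgeR FDR = 1.89e-05), against 2.98 (SE 0.38) in KO. C1s1, the second protease, was higher in PFC by 1.35 in WT and 1.70 in KO. C4b, the component cleaved next, was lower in KO PFC than in KO STR (39.6 against 72.1 CPM, log2 fold change -0.88, SE 0.15, FDR = 0.00291), and in WT the value was -0.44 (FDR = 0.0733). C3 was lower in KO PFC as well, at 0.752 against 2.25 CPM. In all, of the 18 listed complement genes 3 of 15 tested were higher and 0 lower in WT, and 2 of 13 tested were higher and 3 lower in KO, beside 24.4% and 27.7% of all genes called in either direction. No complement gene passed for KO against WT in either region, and 0 of the 15 listed genes tested passed the interaction.

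**Figure D3:**
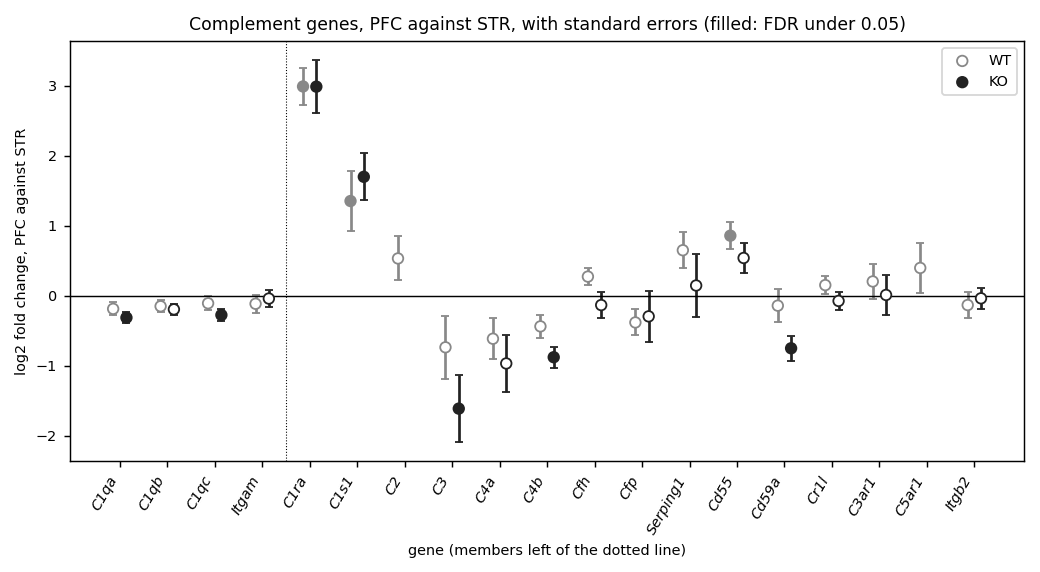
Log2 fold changes of PFC against STR with standard errors for the C1q genes and Itgam (left of the dotted line) and the listed complement genes that were tested, in WT (grey) and KO (black), filled where the FDR was under 0.05. C1ra lies near 3 in both genotypes, while the C1q genes lie between -0.31 and -0.11.

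Other genes of microglia were read beside the members. Of 16 further genes of resting microglia, 1 was called in each comparison between regions, Rgs10, a regulator of G protein signalling that neurons also express, lower in PFC at -0.67 in WT and -0.96 in KO. The medians of the 16 were -0.10 in WT and -0.19 in KO. Among the lineage transcription factors Mef2c, which neurons also express, was higher in PFC in both genotypes. Spi1, the gene of PU.1, was at 7.26 CPM in WT PFC and 6.68 CPM in WT STR (FDR = 0.721). Of 14 activation genes tested, 1 was higher and 2 lower in WT PFC and 4 lower in KO PFC, with Lpl and Cd68 lower in both genotypes, and 0 were called for KO against WT in either region. Of 8 genes of the TGF-beta list tested, 0 were called in WT, and in KO Tgfb3 was higher in PFC and Tgfb2 lower. Of the inflammatory cytokine genes only 4 of 12 were tested between regions, with Ptgs2 higher in PFC and Il18 lower in both genotypes. For KO against WT in PFC, 0 of the 16 further genes and 0 of the 8 lineage factors were called. Negative values were found for 15 of the 16 (median -0.13) and 7 of the 8 (median -0.26), beside 55.9% of all genes. In STR it was 9 of the 16 and 4 of the 8, with medians of -0.01, beside 49.4% of all genes.

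Macrophages of the brain borders and blood cells can express several of the 10 genes. The summed level of the border macrophage genes was 26.5 to 48.4 CPM over the brain libraries, with the lower values of KO PFC given above, and that of 8 blood leukocyte genes was 0.419 to 6.50 CPM, with 0 of the 8 leukocyte genes passing the expression filter in any brain comparison. Between regions most of the border genes tested leaned the other way from the 10 microglia genes. In WT, 1 of 6 had a negative log2 fold change for PFC against STR, where 51.2% of all genes did, and the median was 0.54. That gene was Cd163, lower in PFC (log2 fold change -2.23, FDR = 0.000144), while Mrc1 (1.26) and Lyve1 (1.39) were called higher. In KO, 2 of 6 were negative, with a median of 0.35. Their part in the microglia values was not tested.

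Within the groups the 10 genes did not vary as 1 block. After the mean of each of the 4 groups was taken off, Pearson's r over the 12 brain libraries was 0.88 between Cx3cr1 and Csf1r, and 0.75 to 0.85 among C1qa, C1qb and C1qc. Between Cx3cr1 and the C1q genes it was -0.64 to -0.54, and between P2ry12 and Trem2 it was -0.73. These values are a description of 12 libraries that share their normalisation, and no test was made of them. The summed C1q level over that of Cx3cr1, a ratio chosen after its values were seen, was 2.13 ± 0.151 in WT STR, 1.86 ± 0.290 in KO STR, 2.10 ± 0.334 in WT PFC and 1.74 ± 0.115 in KO PFC (SD, n = 3), and the genotypes overlapped in both regions.

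The genes most like the mean of the 10 over the same 12 libraries were searched among 12954 other genes. Ctss, a lysosomal protease of microglia, came first at r = 0.96, followed by Fzd1 (0.92), Fxyd1 (0.91), Tmem106c (0.89) and Abhd3 (0.89). Further genes known from microglia ranked lower, with Spi1 at 192 (r = 0.73) and Tyrobp at 898 (r = 0.55) the next of those listed. Others were below 0, among them Siglech at 7769 (r = -0.11), Cd33 at 12341 (-0.60) and Cebpa at 12616 (-0.66). Many listed microglia genes thus did not follow the mean of the 10, which is a mean of genes that did not vary as 1 block themselves. With 12 libraries and the group means taken off, high values of r can arise among so many genes. The ranking is a description and was not tested.

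In the cultures most of the microglia genes were near 0, but Tmem119 and Itgam were higher in ESCs. The highest ESC library was at 20.4% of the lowest brain library for Tmem119 and at 13.3% for Itgam. The summed level of the 10 genes was 469 to 582 CPM in the brain libraries, 0.593 to 1.81 CPM in NPCs, 3.22 and 4.42 CPM in ESC replicate 1 and 12.1 and 15.4 CPM in ESC replicate 2. In 2 of the 10 genes, Cx3cr1 and Csf1r, the highest culture library was under 1% of the lowest brain library. Without the ESC libraries of replicate 2, a choice made after seeing the data, that held for 7 of the 10, with P2ry12, Tmem119 and Itgam as the exceptions.

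**Figure D4:**
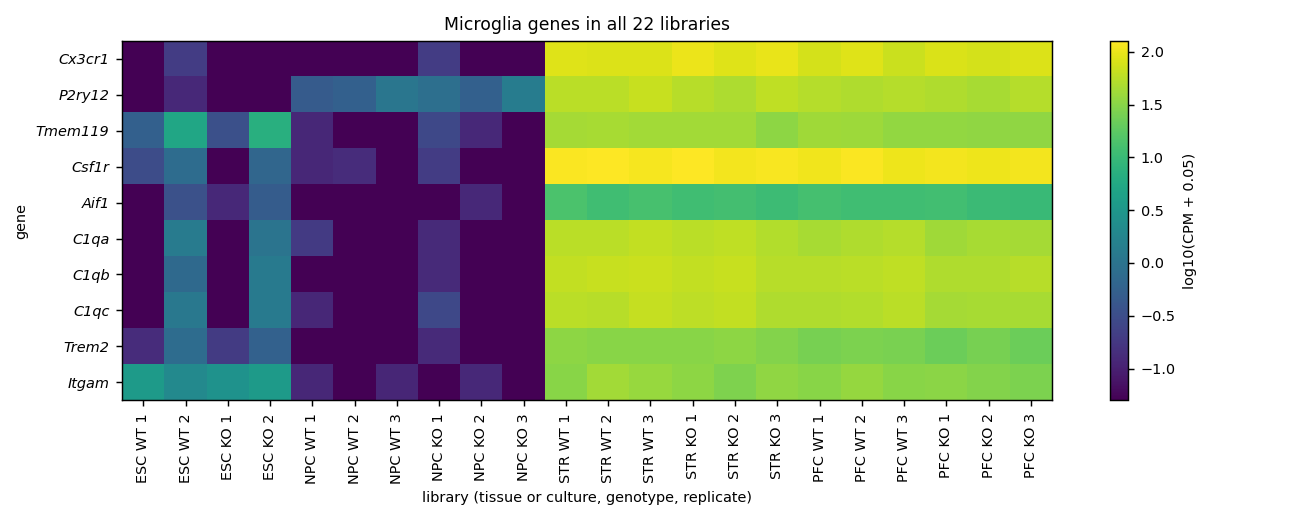
Level of the 10 microglia genes in all 22 libraries as log10(CPM + 0.05), with the lowest colour standing for no count. The brain libraries form a solid block, P2ry12 is seen in all 6 NPC libraries, Itgam in all 4 ESC libraries, and the C1q genes and Tmem119 in ESC replicate 2.

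NPCs held hardly any of these transcripts. Over the 6 NPC libraries together C1qb, Aif1 and Trem2 each had 1 count, Cx3cr1 2, C1qa and Itgam 3, C1qc and Csf1r 4 and Tmem119 5. For C1qb the brain level was 4861 times that of NPCs, with a counting interval of 872 to 192049, and for Csf1r 2388 times (932 to 8766). A count of 0 in an NPC or ESC library allows up to 3 counts, or 0.193 to 0.262 CPM, and all such intervals cover counting error only. P2ry12 differed, with 6, 6 and 16 counts in WT and 11, 7 and 19 in KO, together 65 counts and a brain level 68.6 times as high (53.7 to 89.0). Med12l, the gene around P2ry12, had 318 to 437 counts in the NPC libraries, and P2ry13, a neighbouring receptor gene of microglia, had 0 in all 6. P2ry12 was 1.49% to 5.22% of Med12l in NPCs and 81.9% to 164% in the brain. As the only microglia gene tested in NPCs, P2ry12 had a log2 fold change of 0.42 for KO against WT (SE 0.52, edgeR FDR = 0.9998), where 0.00697% of all genes were called. Its unadjusted p was not under 0.05, against 3.03% of all genes, and neither DESeq2 (0.0349% of all genes) nor edgeR's exact test (0.0139%) called it.

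In ESCs the replicate number and not the genotype divided the libraries. C1qa had 0 counts in both libraries of replicate 1 and 17 (WT) and 11 (KO) in replicate 2, C1qb 0 against 9 and 14, and C1qc 0 against 15 and 14. Tmem119 had 6 and 4 counts in replicate 1 and 68 and 79 in replicate 2. Csf1r had 3 and 0 against 10 and 7, Trem2 1 and 2 against 10 and 6, and Aif1 0 and 1 against 4 and 5. Itgam went another way, with 42 (WT) and 37 (KO) counts in replicate 1 and 26 and 40 in replicate 2. Cx3cr1 and P2ry12 had at most 2 counts in any ESC library.

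Other genes moved with those counts. Lyz2, a lysozyme of macrophages, had 5 and 8 counts in ESC replicate 1 and 171 and 136 in replicate 2, and Csf1 had 126 and 181 against 2145 and 2135. Col1a1, a collagen of fibroblasts, had 809 and 889 counts in replicate 1 and 19014 and 20300 in replicate 2. Tyrobp had at most 3 counts, and P2ry13 0 in all 4 libraries. The part of feeder cells in these counts was not tested. Of the 10 genes, 4 were tested for KO against WT in ESCs (Tmem119, C1qa, C1qc and Itgam), and 0 were called in edgeR, with log2 fold changes of -0.48 to 0.34 and SE of 0.41 to 2.13, where 0% of all genes were called. An unadjusted p under 0.05 was reached by 0 of the 4 and by 1.13% of all genes, and DESeq2 (0.0199% of all genes) and edgeR's exact test (0.0133%) called 0 of the 4.

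**Figure D5:**
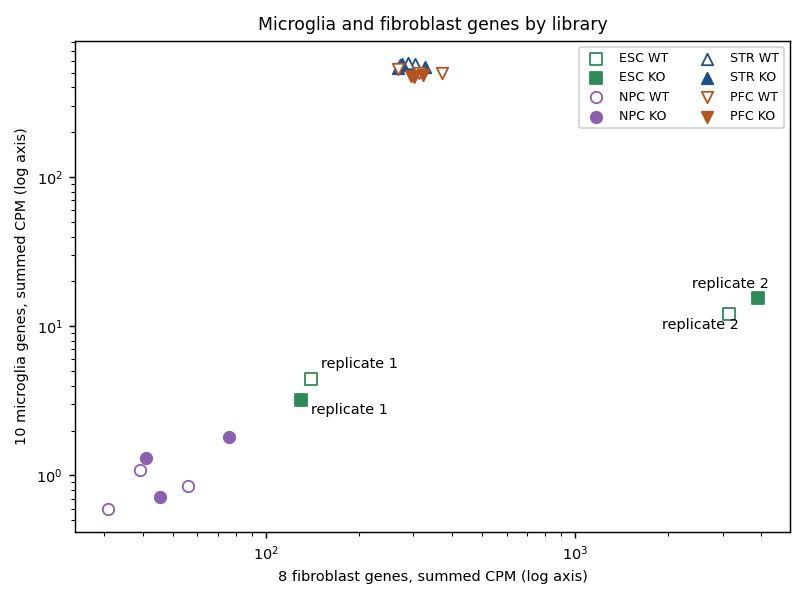
Summed CPM of the 10 microglia genes against that of 8 fibroblast genes in the 22 libraries, both on log axes, WT open and KO filled. The ESC libraries of replicate 2 lie at 12.1 and 15.4 CPM of microglia genes and those of replicate 1 at 3.22 and 4.42 CPM, while the brain libraries lie at 469 to 582 CPM.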

How the data were processed

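Reads had been mapped by the authors to the mouse build mm10 with STAR and counted per gene with HTSeq on Ensembl release 75, and the authors deposited raw counts, 1 table per sample, without normalization. Per the submitters' processing notes, CASAVA 1.7 was used as well. Versions of STAR and HTSeq are not given in the sources used here. Libraries were made with the Illumina TruSeq RNA kit. Gene names, positions and lengths came from GENCODE M21, which matched 37693 of 39179 identifiers (99.7% of counts).

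From the deposited counts, CPM (TMM over the 12 brain or the 10 culture libraries) and RPKM were computed here. Summed list levels used total counts only. Groups were compared with edgeR 4.0.16 in R 4.3.3 (quasi-likelihood test, robust, TMM, filterByExpr), fitted on all genes with only the groups compared, or all 12 brain samples for the interaction, with Benjamini-Hochberg adjustment over all genes tested. Intervals of fold changes are at 95%, and those of ratios of counts are exact binomial. DESeq2 1.42.0, edgeR's other tests, other scaling and filters, a log2 fold change beyond 1, the replicate number as a block and leaving out each sample were alternatives. The code was tested on simulated data with known changes.

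The 10 genes and all lists were chosen with earlier results of these data known. All 10 were named, as were, from each other list, at most 4 genes with an FDR under 0.05 by smallest FDR, and the partners of a member in the ligand, receptor, transcription factor, complement and TREM2 lists. Of other lists only those that bear on the 10 genes are given, and some list genes are not reported here. The likeness search took genes with a mean of at least 5 CPM.

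Replicate pairs differed by more than sampling noise, with a chi-square of 1.83 to 37.3 times its degrees of freedom over 20 pairs. Same-numbered PFC and STR samples deviated together (r = 0.186 to 0.392 in WT and 0.143 to 0.189 in KO), as did WT and KO NPC samples (0.524 to 0.705). This pairing comes from the data, since the labels give only the number. Same-numbered WT and KO samples of PFC (r = -0.032 to 0.0546) and STR (-0.0215 to 0.133) shared only a number.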

Additional observations from a re-analysis of the deposited data

How the results depend on the processing

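For KO against WT, the number of the 10 microglia genes called was 0 in PFC, STR, NPCs and ESCs and in the interaction under every alternative that was run, and also with the replicate block. In WT PFC against WT STR, 1 gene (Trem2) was called with the replicate block and 1 with all 4 brain groups fitted together, against 0 in the main analysis. In KO PFC against KO STR, 3 were called, and 3 with the replicate block, but 0 with DESeq2, 0 with a log2 fold change beyond 1 as well, 4 with total counts only (Cx3cr1 added) and 0 to 3 with 1 library left out. The replicate block changed no other call among the 10 genes. The cultures gave 7 genes in place of 2 under 1% of the brain level without the ESC libraries of replicate 2. Of 609 alternative values of single genes, 16 turned in sign, all with 1 library left out and none for a called gene. Those log2 fold changes, as lowest and highest values with 1 library left out, were: in PFC (KO against WT), Csf1r -0.068 to 0.025 and P2ry12 -0.101 to 0.029. In STR (KO against WT), they were C1qa -0.076 to 0.017, C1qc -0.086 to 0.026 and Csf1r -0.077 to 0.034. Between regions in WT, they were Aif1 -0.136 to 0.0047 and Itgam -0.225 to 0.0023. Between regions in KO, they were Aif1 -0.114 to 0.0063, Itgam -0.134 to 0.045 and P2ry12 -0.143 to 0.051. Over all genes, calls in PFC went from 98 to 196 with DESeq2, 376 with the exact test, 379 without a filter, 18 with a log2 fold change beyond 1, and 2 to 154 with 1 library left out. In STR they went from 0 to 53 with DESeq2, 104 with the exact test, 27 without a filter and 8 with the replicate block. In ESCs the block gave 513 in place of 0, and in the interaction 12 in place of 1. The causes were not tested.

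With 3 samples a group, the lower ends of the intervals in PFC lay 7.87% to 25.9% below WT. In NPCs 9 of the 10 genes and in ESCs 6 of the 10 had too few counts to be tested.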

Other observations

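Some genes that belong to the other microglia lists were abundant in the cultures, where most of the 10 microglia genes were near 0. Sall1, a zinc finger factor, was at 275 to 303 CPM in ESCs and 30.9 to 46.4 CPM in PFC. Apoe, a lipid carrier that binds TREM2, was at 828 to 1540 CPM in NPCs and 185 to 289 CPM in PFC. Siglech and P2ry13, by contrast, had 0 counts in all 10 culture libraries and reached 26.2 CPM and 26.0 CPM in PFC.

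The ligands of CSF1R were also unequal in the cultures. Csf1 was at 52.5 to 81.5 CPM in NPCs and 29.3 to 46.7 CPM in PFC, while Il34 was at 0.706 to 3.46 CPM in NPCs and 73.4 to 91.9 CPM in PFC. These values scale to total counts and were not tested across the cultures and tissues, whose libraries also differed in the share of reads that did not map uniquely (33.2% to 45.5% in the cultures and 7.62% to 8.90% in the brain).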
